A study of Equus caballus with 6 samples.

Results

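The genes described here carry out protein synthesis: 47 initiation factor genes (symbols beginning with EIF), 10 elongation factor genes or genes named after them (EEF) and 31 aminoacyl-tRNA synthetase genes. They were chosen by gene symbol or full name from the array's probe descriptions. The naming rule uses no measured values, but it was set with earlier results of these data known. The genes make up 88 of the 13548 named genes and 150 of the 43603 probes on a horse array. 3 argonaute genes once called EIF2C were left out, as were synthetase subunits whose symbols have another form (EPRS1, FARSA, FARSB and TARS3). Each of 6 tissue regions was measured on 1 single-colour array. 3 regions were taken from fetal hindlimbs (gestational day 40). 2 of them, the intermediate and the outer interzone, belong to the tissue in which a joint forms, and the third, transient embryonic cartilage, gives way to bone later on. The other 3 were layers of adult articular cartilage from the stifle at 15 years of age: the superficial 10% of its depth, a middle layer at 20 to 30% and a deep one at 50 to 90%. All 6 were cut from cryosections by laser capture microdissection, and their RNA was amplified by PCR before labelling. No treatment or genotype is named in the labels, and how many animals were used was not given in the sources here.

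Translation starts when EIF2 brings the initiator tRNA to the small ribosomal subunit, to which EIF3 binds. The cap-binding factors EIF4E, EIF4G and EIF4A recruit the mRNA. EIF2B recharges EIF2 with GTP, and kinases that phosphorylate EIF2 slow this exchange under stress. Elongation factors then deliver aminoacyl-tRNAs and move the ribosome along, and the synthetases load each tRNA with its amino acid in the cytosol or in mitochondria. In cartilage this machinery feeds the synthesis of collagen and proteoglycan matrix, which is intense in growing cartilage and slow in the adult.

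Values are array intensities on a log2 scale, set to 0 at the 75th percentile of the 1765 probes that lay well above background on all 6 arrays. They are called levels below, and they compare 1 gene between arrays, not genes with one another. Each difference between arrays was taken relative to the median difference of all genes measured there, and a difference of at least 2-fold was counted. With 1 array per group there is no replicate to set a difference against, and no test was made. Stage and slide cannot be told apart, since the fetal arrays lay on slide 1 and the adult arrays on slide 2.

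Many results turn on a single probe, so the reported probes of 7 genes are shown, each the only probe of its gene except for EEF1A1, which has 3. They are 60-base sequences from the array files, written 5′ to 3′, with no letters capitalised because no motif is at issue. Among the translation genes above background on all 6 arrays, IARS1 differed most between adult and fetal tissue. EIF2B4 and EIF2B5 of the EIF2B complex differed in opposite directions between the interzone layers. HARS2 and EIF6 stood out over transient cartilage among translation genes measured on both arrays, and EEF1A1 and EIF4B were above background everywhere.
IARS1: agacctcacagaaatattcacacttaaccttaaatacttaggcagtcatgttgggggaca
EIF2B4: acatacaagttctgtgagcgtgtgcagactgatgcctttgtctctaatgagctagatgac
EIF2B5: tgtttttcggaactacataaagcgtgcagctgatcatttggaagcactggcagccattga
HARS2: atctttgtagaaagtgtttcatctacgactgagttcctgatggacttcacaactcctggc
EIF6: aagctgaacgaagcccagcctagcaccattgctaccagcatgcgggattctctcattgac
EEF1A1: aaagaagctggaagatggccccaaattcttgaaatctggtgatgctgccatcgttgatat
EIF4B: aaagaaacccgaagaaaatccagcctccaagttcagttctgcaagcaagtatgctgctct
Each of these probes has at least 1 reading frame without a stop codon. The median GC content was 43.3% for the probes of the translation genes and 43.3% for all probes. EEF1A1 has many near-identical copies in mammalian genomes, so its signal may include them.

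The translation genes were detected more often than genes in general on every array. Detection is counted by a gene's reported probe, the brightest on average, with 2 exceptions by another probe: EIF4A2 was also above background in the deep layer, and so was EIF5B in the intermediate interzone, where its reported spot was left out as an outlier. In the fetal tissue 62 of the 88 (70.5%) were well above background on the intermediate interzone array against 37.5% of all named genes, 67 (76.1%) on the outer interzone array against 43.4%, and 71 (80.7%) on the cartilage array against 45.5%. In the adult 53 (60.2%) were above background on the superficial array against 28.5%, 19 (21.6%) on the middle array against 9.46%, and 18 (20.5%) on the deep array against 12.1%. In microdissected tissue, fewer cells and less RNA per cell cannot be told apart. The low counts of the middle and deep arrays went with low detection overall: 8.40% and 10.8% of all probes were above background there, against 26.4% to 44.6% on the other arrays, and of 6 ubiquitous genes 1 and 2 were detected.

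**Figure D1:**
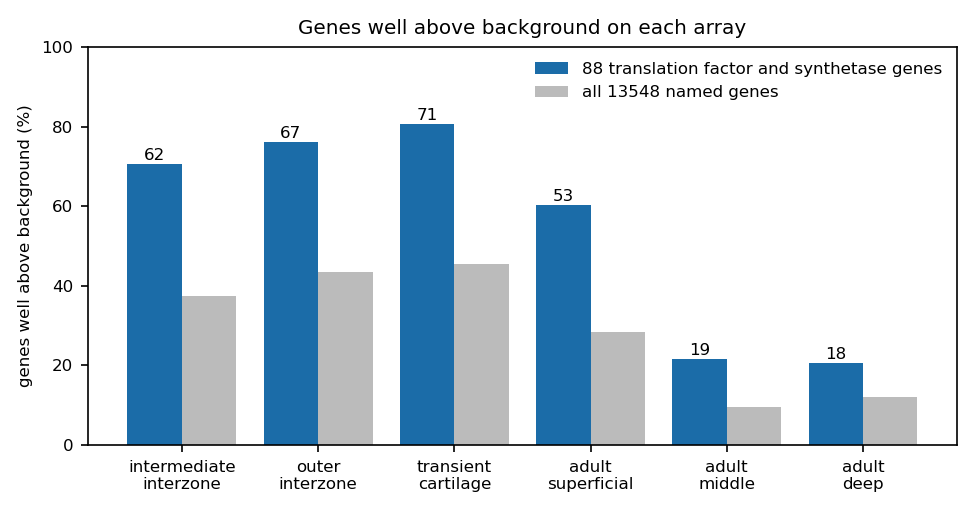
Share of genes well above background on each of the 6 arrays, in percent, for the 88 translation genes (blue, with their number above the bar) and for all 13548 named genes (grey). The blue bar is taller than the grey one on every array, and both are shortest on the adult middle and deep arrays.

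9 of the 88 genes were above background on all 6 arrays by their reported probe (EIF4A2 was so as well with its other probe counted): the elongation factors EEF1A1 and EEF2, the initiation factors EIF2A, EIF3E, EIF3H and EIF4B, and the synthetases IARS1, QARS1 and TARS1. Of all 13548 named genes, 565 were above background on all 6 arrays by their reported probe. 57 of the 88 were above background on all 3 fetal arrays, against 3849 of all named genes. 47 of the 57 were so in the superficial layer too, against 2333 of all named genes. 11 were above background nowhere by any probe, including LARS1, LARS2, PARS2 and VARS2 among the synthetases, EIF1AD, EIF4E1B and EIF5A2 among the initiation factors, and EEF1AKMT3, EEF2K and EEF2KMT, which encode enzymes that modify elongation factors. By any probe, the middle and deep layers shared 10 detected genes, with 9 found in the middle layer alone of the pair and 9 in the deep layer alone. Of the translation genes measured in the middle layer, 47.4% had no probe above background in the deep one, against 36.9% of all genes. Of those measured in the deep layer, 50.0% had none in the middle one, against 50.3%.

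Detection differed by role. All 12 EIF3 subunits on the array were above background in each fetal region and 11 in the superficial layer, but 2 (EIF3E and EIF3H) in the middle and 6 in the deep layer. Of 10 cap-binding and helicase genes, 9 were detected in each fetal region, 8 in superficial cartilage, 6 in the middle and 2 in the deep layer, EIF4B and, by its other probe, EIF4A2. The 5 subunits of EIF2B were detected in 4, 4 and 5 cases in the intermediate interzone, outer interzone and transient cartilage, in 3 cases in the superficial layer and in none of the deeper layers. Among the synthetases, 6, 9 and 10 of 15 mitochondrial enzymes were detected in the 3 fetal regions, and 3, 0 and 1 in the superficial, middle and deep layers. For the 9 cytosolic synthetases outside the multi-synthetase complex, the fetal counts were 7, 9 and 9, and the adult counts were 8, 3 and 1. A terminal oligopyrimidine tract is an mRNA sequence through which growth signals control translation. Of the 9 translation genes on the array that were listed as carrying one, all were detected in the fetal and superficial arrays. The middle array detected 5 of them and the deep array 8.

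**Figure D2:**
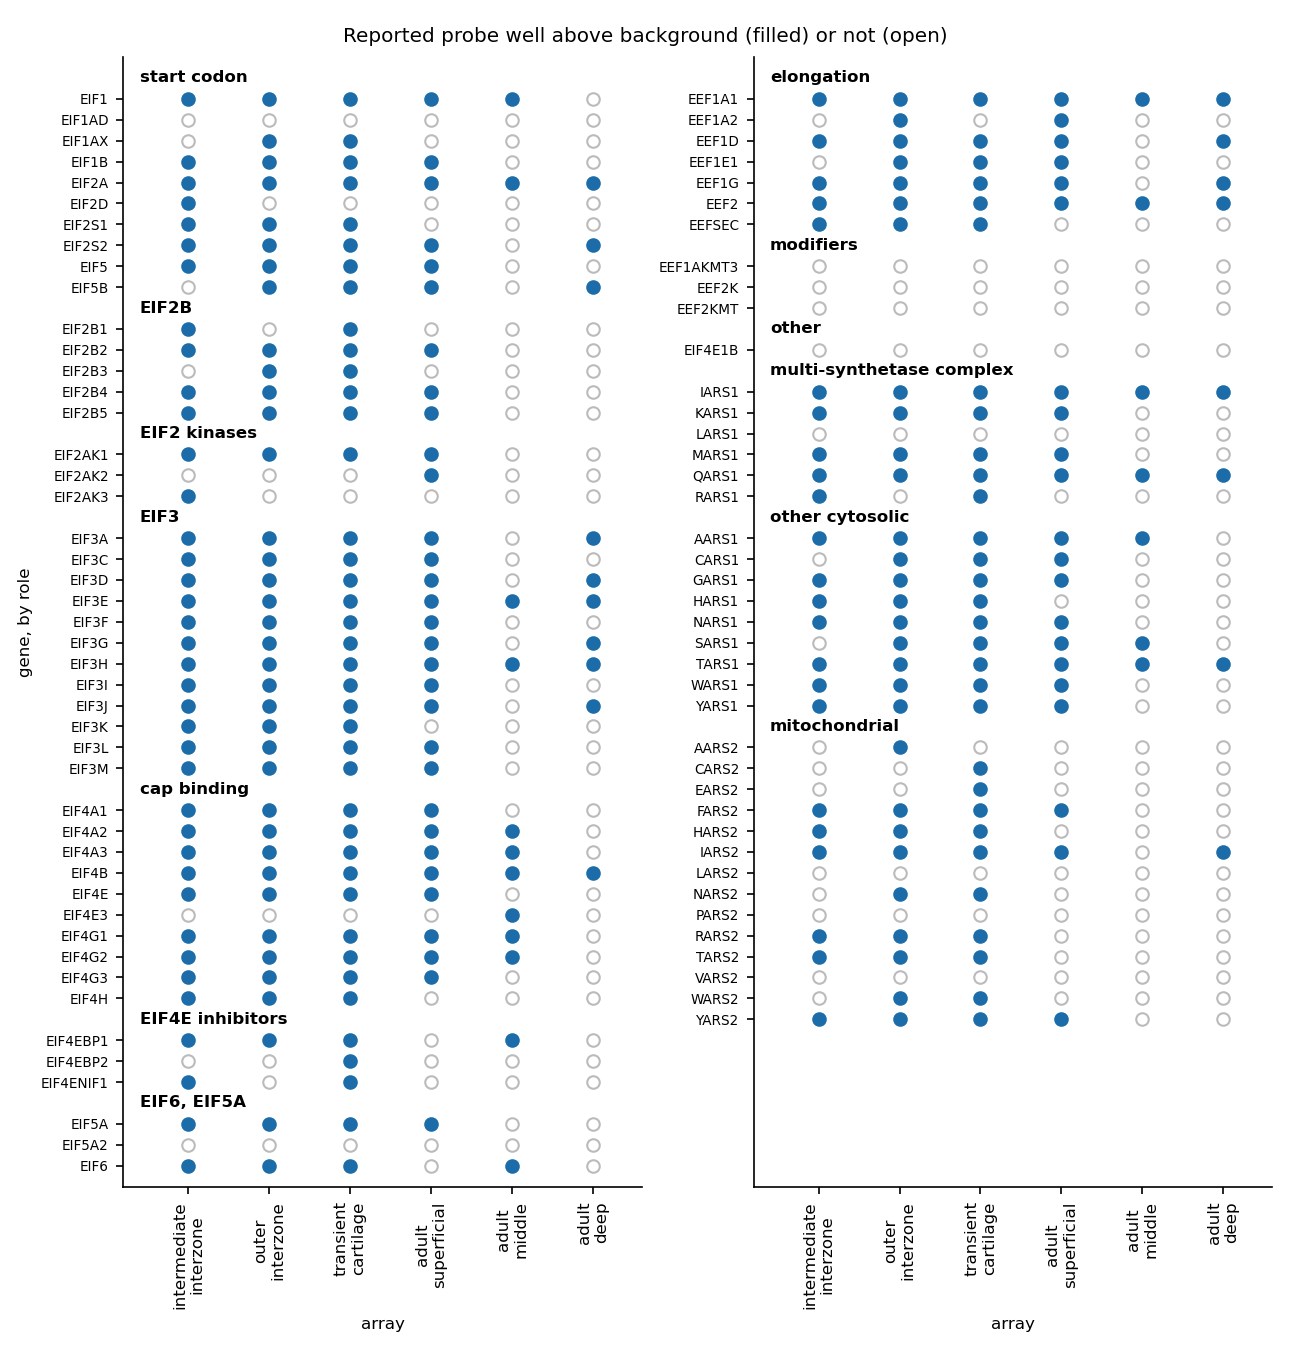
Detection of 86 of the 88 genes (rows, grouped by role) on the 6 arrays (columns). A filled point marks a reported probe well above background and an open point one that was not: the EIF3 block is filled on all 3 fetal arrays, and most mitochondrial synthetases are open on the adult arrays.

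In the intermediate interzone, 60 of the genes were measured on both that array and the transient cartilage array. 12 of them (20.0%) were at least 2-fold higher there, against 24.6% of 4280 genes, and 16 (26.7%) were at least 2-fold lower, against 23.8%. Their median difference was -0.26 on the log2 scale, where the median of all genes is 0. The shares of the translation genes were near those of all genes. Without centring, when all genes stand 0.36 higher in the interzone, the split was 15 higher and 11 lower. The median error of a difference from the spot errors was 0.21, and the median SD between probes of a gene was 0.23. Chondrocyte markers were much lower in the interzone: all 5 measured were at least 2-fold lower, and their part in these differences was not tested.

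HARS2, the mitochondrial histidyl-tRNA synthetase, stood at a level of -3.72 in the intermediate layer, -4.16 in the outer layer and -7.05 in cartilage. It was high in both interzone layers, 7.86-fold over cartilage in the intermediate and 7.03-fold in the outer layer. EIF6, which keeps the large ribosomal subunit from joining too early, had levels of -0.15, -2.41 and -3.45 in the same order. It was 7.73-fold higher in the intermediate interzone than in cartilage. EIF2B4, a regulatory subunit of EIF2B, stood at -1.05, -6.68 and -3.36, so the cartilage level lay between those of the interzone layers. It was 3.87-fold higher in the intermediate interzone than in cartilage. EEFSEC, which delivers the selenocysteine tRNA, was 3.78-fold higher, RARS2, the mitochondrial arginyl enzyme, 3.31-fold and WARS1, the cytosolic tryptophanyl enzyme, 2.96-fold. In cartilage WARS1 stood at -8.72, near the lowest level above background on that array (-8.88).

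EIF4G1, the scaffold of the cap-binding complex, had levels of -5.10, -3.77 and -2.15 in the intermediate interzone, outer interzone and cartilage. It was 9.86-fold lower in the intermediate interzone than in cartilage, by the 1 probe measured on both arrays. EIF1B, a relative of the start codon factor EIF1, had levels of -6.27, -3.25 and -3.62. It was low in the intermediate layer alone of the fetal arrays, 8.03-fold under cartilage. YARS1, the tyrosyl enzyme, was 5.16-fold lower, the EIF3 subunit EIF3M 4.18-fold, the EIF2 subunit EIF2S2 3.61-fold and IARS1, the isoleucyl enzyme, 3.15-fold. EEF2, the translocation factor, was 3.92-fold higher by its reported probe, but its 2 probes went opposite ways (-1.22 and 1.97), as did those of NARS1, the asparaginyl enzyme (-2.27 and 0.54).

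By role, 10 of 12 EIF3 subunits in the intermediate interzone lay within 2-fold of cartilage and 2, EIF3I and EIF3M, were lower. Start codon and EIF2 genes had no member at least 2-fold higher and 3 of 6 lower (EIF1B, EIF2S1 and EIF2S2). The cap-binding genes had none of 9 higher and 2 lower (EIF4G1 and EIF4B). Mitochondrial synthetases had 3 of 6 higher (HARS2, RARS2 and YARS2) and FARS2 lower, and these 4 lay on the same sides in the outer interzone, where TARS2 was lower as well. The 2 layers were set against the same cartilage array, so these directions are not independent.

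10 of the 71 translation genes measured in transient cartilage (14.1%) had no probe above background in the intermediate interzone, against 29.9% of all genes measured there. EEF1E1, a scaffold protein of the multi-synthetase complex, was at least 11.1-fold lower in the interzone, the seryl enzyme SARS1 at least 8.15-fold, and the mitochondrial enzymes WARS2 and CARS2 at least 7.36-fold and 6.87-fold. Such bounds set the bright array's level against the higher of the dim probe's own signal and the lowest signal well above background on the dim array, without centring. In the other direction 2 of 62 genes (3.23%) were found in the interzone and not in cartilage, against 15.5% of all genes. EIF2D, an alternative carrier of initiator tRNA, was at least 30.4-fold higher, and EIF2AK3, the EIF2 kinase of the endoplasmic reticulum, at least 6.54-fold.

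In the outer interzone, 65 genes were measured together with transient cartilage. 9 (13.8%) were at least 2-fold higher, against 23.5% of 4773 genes, and 14 (21.5%) were lower, against 21.6%, with a median of 0.02. With the 50th percentile of all probes and no centring the split became 18 higher and 9 lower. The genes spread less than genes in general: their median absolute difference was 0.65 against 0.87. Of the EIF3 subunits, 11 of 12 lay within 2-fold and EIF3K was 3.32-fold lower.

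SARS1 had levels of -8.68 in the outer interzone and -4.99 in cartilage and was 13.6-fold lower. Its outer interzone level lay near the lowest above background on that array (-8.94). EIF2B4 was 10.6-fold lower and EIF2B2, another regulatory subunit of the complex, 6.51-fold lower, while EIF2B5, the catalytic subunit, and EIF2B3 were 3.35-fold and 2.74-fold higher. The EIF2B subunits measured on both arrays were thus split 2 against 2, while EIF2B1 was not above background in the outer interzone. EIF2S1, the EIF2 subunit that the kinases phosphorylate, was 8.88-fold lower and YARS1 7.33-fold lower. WARS1 was 4.68-fold higher, EIF5A, which relieves ribosome stalling, 2.36-fold, though its other probe gave 0.12 on the log2 scale, and RARS2 2.35-fold. The cartilage level of WARS1, -8.72, lay near the lowest above background on that array (-8.88). Among genes found in cartilage and not in the outer interzone, 6 of 71 (8.45%) against 22.2% of all genes, EIF2B1 was at least 15.6-fold lower in the interzone, CARS2 13.0-fold, EIF4ENIF1, which carries EIF4E into the nucleus, 10.8-fold and EIF4EBP2, an inhibitor of EIF4E, 8.46-fold. In the other direction AARS2, the mitochondrial alanyl enzyme, was at least 6.84-fold higher.

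**Figure D3:**
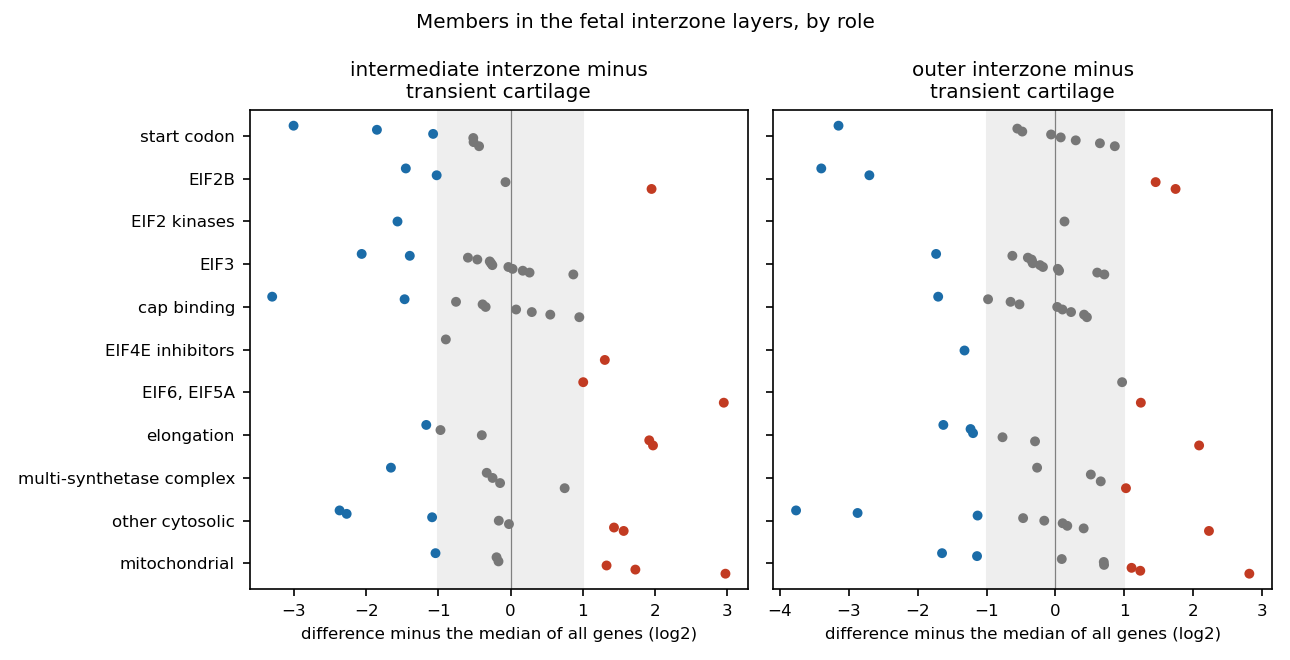
Differences of 59 of the 60 and 64 of the 65 measured genes in the intermediate (left) and outer interzone (right) from transient cartilage, in log2 units relative to the median gene, by role. Grey points in the shaded band lie within 2-fold, red points are at least 2-fold higher and blue points at least 2-fold lower. The EIF3 points cluster near 0, and the EIF2B points lie on both sides.

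Between the interzone layers 57 genes were measured, with 8 (14.0%) at least 2-fold above the outer layer in the intermediate one, against 21.3% of 4243 genes, and 10 (17.5%) below it, against 21.2%. The median was 0.06, and with the 75th percentile of all probes and no centring the split was 13 higher and 8 lower. EIF2B4 stood 42.7-fold higher in the intermediate than in the outer layer, the widest gap of any translation gene measured in the fetal arrays. EIF2B2 was 6.48-fold higher and EIF2B5 6.51-fold lower, with levels of -4.91 in the intermediate and -2.42 in the outer layer. EEFSEC was 9.29-fold higher, EIF2S1 4.41-fold, EIF6 4.14-fold and EIF3K 2.85-fold. The outer level of EEFSEC, -8.56, lay near the lowest above background on that array (-8.94). EIF1B was 9.41-fold lower, IARS1 6.13-fold, EIF2S2 3.64-fold, EIF3M 3.16-fold and EIF2AK1, the heme-regulated EIF2 kinase, 3.11-fold.

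Among genes found in 1 layer alone, EIF4ENIF1, EIF2D, EIF2AK3 and EIF2B1 stood higher in the intermediate layer by at least 34.1-fold, 31.7-fold, 7.89-fold and 7.32-fold. WARS2, EEF1E1 and EIF1AX, the partner of EIF1 in scanning, were at least 8.28-fold, 6.86-fold and 4.51-fold higher in the outer layer. None of the 9 translation genes listed with a terminal oligopyrimidine tract differed by 2-fold between the layers, and their range was -0.75 to 0.90. Markers of other cells differed between the layers too. Of the muscle markers measured in both, MYL1 was 4.47 higher in the intermediate layer on the log2 scale and ACTA1 0.07 higher, and CKM was above background in the outer layer of the pair. The blood gene HBB was 3.54 and the macrophage gene AIF1 2.73 higher in the intermediate layer, and CD68, another macrophage gene, was 1.45 lower. The epithelial genes KRT17 and EPCAM were above background in the outer layer, at levels of -2.15 and -5.59, and not in the intermediate one, and no endothelial marker was detected in either. The part of other cells in these differences was not tested.

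In the adult superficial layer 47 genes were measured that were also measured in all 3 fetal regions. 14 (29.8%) were at least 2-fold higher than the fetal mean, against 28.2% of 2333 genes, and 15 (31.9%) were lower, against 28.7%, with a median of 0.02. The shares again lay near those of all genes. This split rests on centring: with the 75th percentile of all probes and no centring it was 34 higher and 2 lower, with a median of 2.30. Leaving out each fetal array in turn gave 14 to 15 higher and 14 to 16 lower.

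IARS1 had fetal levels of -6.44, -4.04 and -5.14 in the intermediate interzone, outer interzone and cartilage and a superficial level of -1.18. It was 16.9-fold higher in the superficial layer, above each fetal array. EIF4E, the cap-binding protein itself, had fetal levels of -3.60, -3.54 and -4.03 and stood at -0.91 in the superficial layer. It was 7.26-fold higher there by 2 probes, while its other 2 probes were above background on no array. EIF4G2, a relative of EIF4G1 that lacks the cap-binding part, was 5.0-fold higher, EIF2B4 4.85-fold, EIF2S2 4.14-fold and the helicase EIF4A1 3.43-fold. Its paralog EIF4A2 differed by 0.06 on the log2 scale.

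EIF5, which triggers GTP hydrolysis on EIF2, had fetal levels of -1.71, -0.61 and -1.55 and a superficial level of -4.92. It was 11.9-fold lower in the superficial layer than in the fetal mean by 1 probe, its other probe being above background on no array. EIF4G1 was 6.44-fold lower (higher by 0.97 on the log2 scale when its 2 probes were averaged), EEF2 6.26-fold, QARS1, the glutaminyl enzyme, 5.67-fold and EIF2B5 5.58-fold. Within the multi-synthetase complex, IARS1 was higher while KARS1, MARS1 and QARS1 were at least 2-fold lower. In the cap-binding group 4 of 8 were higher (EIF4E, EIF4G2, EIF4A1 and EIF4B) and 2 lower (EIF4G1 and EIF4A3). Among 11 EIF3 subunits 3 were higher (EIF3D, EIF3G and EIF3M) and 2 lower (EIF3I and EIF3L, whose 3 probes disagreed).

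10 of the 57 genes measured in all fetal regions (17.5%) had no probe above background in the superficial layer, against 38.8% of all genes. EIF3K was at least 156-fold lower there, EIF6 77.6-fold, TARS2, the mitochondrial threonyl enzyme, 55.4-fold and EIF4H, a helper of the EIF4A helicase, 37.9-fold. With the 75th percentile of all probes these bounds were 31.2, 15.5, 11.1 and 7.58. EIF2AK2, the kinase activated by double-stranded RNA, was the 1 gene found in the superficial layer and on no fetal array, at least 2.92-fold higher by 1 of its 3 probes, the other 2 being above background nowhere. EEF1A2, the paralog of EEF1A1 typical of muscle and neurons, was above background in the outer interzone and the superficial layer only, with levels of -8.43 and -7.39.

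**Figure D4:**
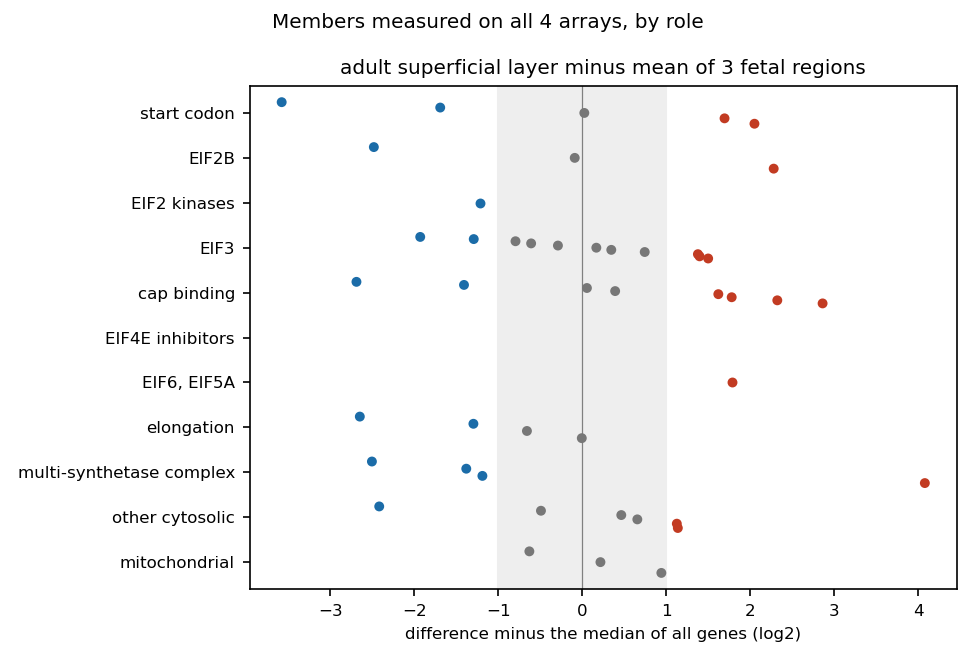
Differences of 46 of the 47 measured genes in the adult superficial layer from the mean of the 3 fetal regions, in log2 units relative to the median gene, by role. Colours are red for at least 2-fold higher, blue for at least 2-fold lower and grey for within 2-fold. The highest point is IARS1 at 4.08, in the multi-synthetase complex.

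Among the adult layers few genes were measured on both arrays, and the counts depended on the scaling. Between the superficial and deep layers 18 were measured, with 8 higher in the superficial layer (44.4%) against 27.8% of 1235 genes, 5 lower (27.8%) against 24.4%, and a median of 0.87. Without centring the split was 4 higher and 6 lower. Between the superficial and middle layers 16 were measured, with 10 higher (62.5%) against 31.7% of 984 genes, 4 lower (25%) against 23.2%, and a median of 1.20. Without centring it was 5 higher and 6 lower. Between the middle and deep layers 9 were measured, with 2 higher in the middle layer (22.2%) against 15.8% of 798 genes, 4 lower (44.4%) against 20.8%, and a median of -0.24.

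EIF3G had levels of 1.5 in the superficial and -3.70 in the deep layer and was 65.1-fold higher in the superficial one. EIF3A was 10.2-fold higher, EEF1D, an exchange factor for EEF1A1, 7.5-fold and EIF3H 4.83-fold. QARS1 was 7.70-fold lower in the superficial than in the deep layer. EIF5B, which joins the ribosomal subunits, and EEF1G were 8.79-fold and 4.52-fold lower by their reported probes, and both reversed when their probes were averaged (2.37 and 3.12 on the log2 scale). Of the EEF1G probes, the reported one had a level of -0.24 in the deep layer and the other was not above background there.

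EIF3E and EIF4B stood low on the middle array alone of the 6. On that array the ubiquitous genes ACTB and GAPDH were low as well: ACTB had a level of -5.46, against -1.0 in the superficial and -1.90 in the deep layer, and GAPDH was above background on all arrays but this one. The part of the array as a whole in these drops was not tested. EIF3E, an EIF3 subunit, had levels of 2.65, 2.40 and 2.27 in the fetal regions, and 2.10, -2.93 and 2.01 in the superficial, middle and deep layers. EIF4B, which stimulates the EIF4A helicase, had levels of -0.32, 0.22 and 0.79 in the fetal regions and 1.80, -3.12 and 1.80 in the superficial, middle and deep layers. Against the superficial layer the middle one was 93.8-fold lower in EIF3E and 86.6-fold lower in EIF4B, and against the deep layer 53.4-fold and 52.6-fold lower. Both probes of EIF3E went the same way, and EIF4B has 1 probe. The superficial array exceeded the middle one 51.6-fold in SARS1, 27.3-fold in EIF4A2 and 16.5-fold in EIF3H. It fell short of the middle array 5.02-fold in AARS1, the alanyl enzyme, by 5 probes, and 3.72-fold in IARS1. The middle level of SARS1, -5.84, lay near the lowest above background on that array (-6.01). QARS1 was 27.7-fold lower and EIF2A, an alternative initiation factor, 3.82-fold higher in the middle than in the deep layer.

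Bounds between the deeper layers were wide in both directions. EIF4A3, the helicase of the exon junction complex, EIF1, EIF4G2 and AARS1 were at least 453-fold, 329-fold, 154-fold and 43.0-fold higher in the middle than in the deep layer. Of the 3 EIF1 probes, 1 was not above background in the middle layer. EIF3J, EEF1G, EIF5B and EIF3D were at least 130-fold, 54.5-fold, 52.3-fold and 51.6-fold higher in the deep layer. For EEF1G and EIF5B this rests on 1 probe each, since their other probes were not above background in the deep layer. The EIF3J bound is that of its reported probe, at 1.01 in the deep layer. The other EIF3J probes were dimmer there, at -0.47, -1.17 and -5.89, and no EIF3J probe was above background in the middle layer. With the 50th percentile of all probes the bounds of EIF4A3, EIF1, EIF4G2 and AARS1 were 249, 181, 84.9 and 23.7. Of the 53 genes measured in the superficial layer, 34 (64.2%) had no probe above background in the deep layer, against 67.3% of all genes, and 37 (69.8%) had none in the middle layer, against 73.8%. EIF4EBP1, an inhibitor of EIF4E, was above background on the fetal arrays and in the middle layer but not in the superficial layer, at least 7.64-fold lower there (1.98-fold with the 50th percentile).

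For the 9 genes above background on all 6 arrays the mean of the 3 adult layers was set against the mean of the 3 fetal regions. The regions stand in for replicates here without being any. 1 gene was at least 2-fold higher in the adult (11.1%) against 24.1% of 565 genes, and 5 were lower (55.6%) against 26.0%, with a median of -1.19. With the 75th percentile of all probes and no centring, 7 were higher and 0 lower. Without the middle layer, when more genes could be measured, 5 were higher and 7 lower, and without the deep layer 2 were higher and 8 lower.

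IARS1 had adult levels of -1.18, 2.24 and 0.33 in the superficial, middle and deep layers, all above its fetal levels. It was 34.8-fold higher in the adult and was the 1 translation gene with no overlap in that direction, against 23.5% of all genes. By their reported probes EEF1A1, EIF3E and EIF3H were lower on every adult array than on every fetal one, 3 of 9 against 10.3% of all genes. EEF1A1, which carries aminoacyl-tRNA to the ribosome, was the steadiest in level by its reported probe. That probe had 4.67, 4.50 and 4.71 in the fetal regions and 3.92, 4.29 and 3.74 in the adult layers. Another EEF1A1 probe, also above background throughout, had levels of 1.91, 1.84 and 2.68 in the fetal regions and 2.84, 3.1 and 1.89 in the adult layers, so that its groups overlapped. The remaining EEF1A1 probe, above background throughout as well, was less steady. It had levels of 3.01, 3.60 and 3.74 in the fetal regions and 2.68, 0.71 and 0.65 in the adult layers. EIF3H had levels of 3.39, 3.20 and 3.30 in the fetal regions and 2.45, -0.07 and 1.01 in the adult layers. EIF3H was 6.58-fold, EIF3E 6.04-fold, QARS1 3.78-fold, EEF2 2.61-fold and EEF1A1 2.29-fold lower in the adult relative to the median gene. The 3 probes of EEF1A1 ranged from -2.65 to -0.08 on the log2 scale. The differences of all 5 turned positive with the 75th percentile of all probes and no centring, and IARS1 stayed higher. TARS1, the threonyl enzyme, differed by -0.05 and EIF2A by -0.21 on the log2 scale.

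**Figure D5:**
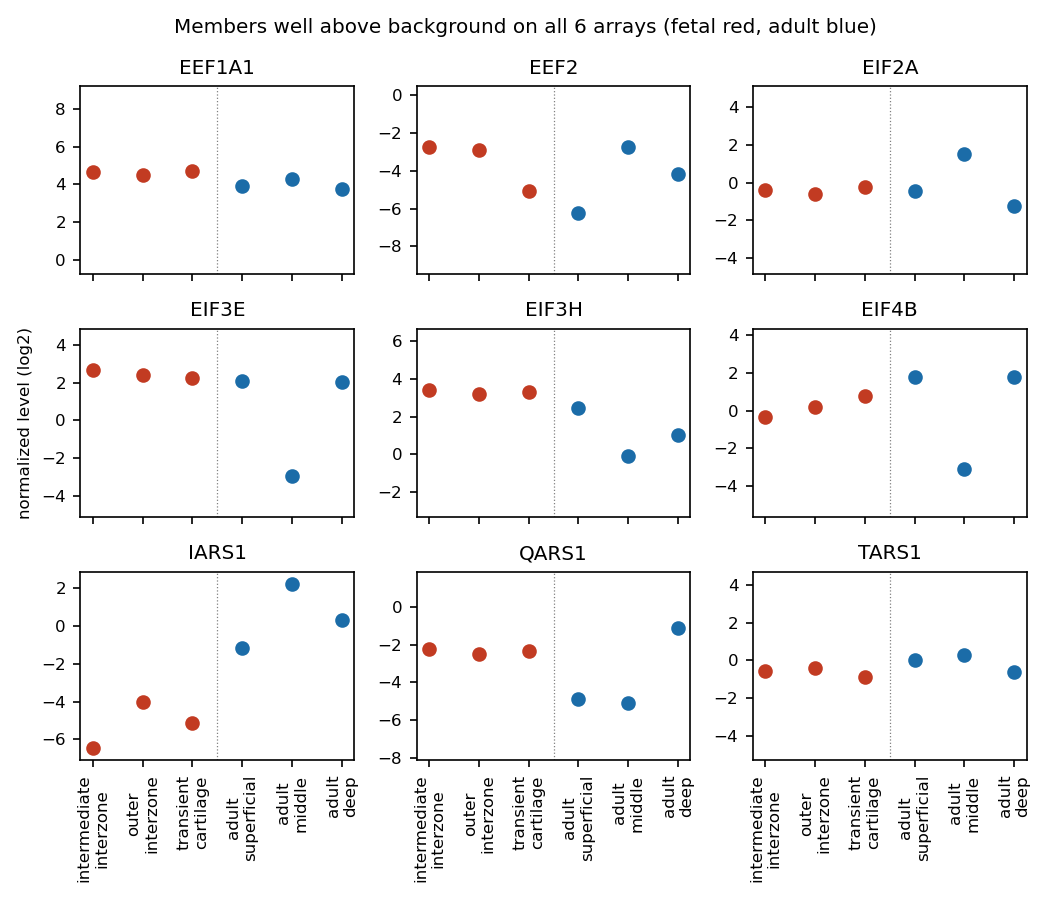
Levels of the 9 genes above background on all 6 arrays, on a log2 scale, 1 panel per gene, with fetal arrays in red and adult arrays in blue. Each panel spans the same width in log2 units, and a level may be read between arrays but not between panels. IARS1 is higher on each adult array than on each fetal one, while EIF3E and EIF4B drop on the middle array alone.

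Neighbouring genes of the pathway were also measured. Of 4 termination and recycling genes, none differed by 2-fold from cartilage in either interzone layer. Of 8 poly(A)-binding and scanning helpers, PAIP1, a partner of the poly(A)-binding protein, was 3.81-fold and 3.32-fold higher in the intermediate and outer interzone, and PABPC4, a poly(A)-binding protein, was 5.14-fold lower in the intermediate. Among the synthetase and scaffold genes outside the naming rule, all 4 measured lay below cartilage in both interzone layers relative to the median gene, at -1.81 to -0.55 on the log2 scale in the intermediate and -2.82 to -0.47 in the outer layer. FARSB, a phenylalanyl subunit, was 3.09-fold and 7.04-fold lower in the 2 layers, and EPRS1, the glutamyl-prolyl enzyme, was 3.01-fold lower in the superficial layer than in the fetal mean.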

How the data were processed

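The authors deposited the output of Agilent Feature Extraction 10.7.3.1 for each array, which holds a linear intensity per spot, background-subtracted per the file headers. The authors also deposited a value table, a ratio of that signal to each array's median, which was found by setting it against the scanner values and used as an alternative. Genome build and annotation were not given in the sources used here. Per the labels' protocols, RNA was PCR-amplified, which can change relative amounts.

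Of 45220 spots, 1417 controls and 3 to 80 outliers on each array were dropped, and no spot was saturated. Repeat spots were averaged. Probes were named through RefSeq's horse gene table (TB-T2T, names only). The reported probe of a gene was the one with the highest mean level over the 6 arrays. Levels, centring, the 2-fold count and bounds are as described above. A gene was measured where that probe passed the background flag on every array compared. The 8 comparisons were descriptive. Named genes were the 6 largest differences per direction among genes whose probes agreed, up to 4 bounds per direction, genes on all arrays or on none, 2 to 4 per role, and fixed paralog pairs. The members, lists and rules were chosen with earlier results of these data known. On a simulated array pair of 6158 genes, all 200 genes changed by a set fold were recovered. This checked the calculation only and does not bear on the calls in these data. limma 3.58.1 (R 4.3.3) gave normexp values with an offset of 50. Other alternatives were other scalings, quantile normalization, averaged probes, filters and a 4-fold threshold. No array carries counts, so the number of arrays limits precision. The individual values of a few genes are not reported here, and these genes remain in the counts and medians.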

Additional observations from a re-analysis of the deposited data

Results flagged for a closer look

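In 4 of the 57 translation genes measured on all 3 fetal arrays (7.02%), against 4.0% of 3849 genes, the 2 interzone layers lay at least 2-fold from transient cartilage in opposite directions. On the log2 scale, EIF2B4 differed by 1.95 in the intermediate and -3.40 in the outer interzone. EEFSEC differed by 1.92 and -1.23, and its outer interzone level of -8.56 lay near the lowest above background there (-8.94). EIF2B5 differed by -1.02 and 1.74, and without centring its intermediate value was -0.67, within 2-fold of cartilage. IARS1 differed by -1.66 and 1.02. Each layer is 1 array, both were set against the same cartilage array, and the difference between the layers was not tested. With normexp background correction, EEFSEC and IARS1 lay within 2-fold of cartilage in the intermediate interzone (0.72 and -0.57). Each of the 4 genes has 1 probe.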

How the results depend on the processing

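For single genes, the alternatives were run on the 6 largest differences per direction and on the 9 genes above background on all arrays. Among fetal regions, those of at least 2-fold kept their direction under all alternatives run. Other genes named by role or pathway were not run. Comparisons with adult arrays depended on how arrays were scaled. No paired analysis was possible because each group has 1 array. The limit throughout is 1 array per group, and few genes above background on the middle and deep arrays. The causes of the changes were not tested, beyond what the alternatives change by construction. Differences are first minus second region, medians are log2, and counts are of translation genes. The numbers of members detected per array were 63 and 19 by any probe in the intermediate interzone and the deep layer, and otherwise as given.

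Without centring, the median was 0.094 for intermediate interzone minus cartilage, 0.042 for superficial minus deep (4 higher), -0.33 for superficial minus middle (5 higher), 0.55 for middle minus deep and -0.64 for adult minus fetal (3 lower). EEF1A1 and TARS1 then turned to -0.38 and -0.31 for superficial minus middle. With the 75th percentile of all probes and no centring, the median was -0.013 for intermediate interzone minus cartilage, 0.40 between interzone layers (13 higher), -0.87 for superficial minus deep (3 higher, 8 lower), -0.56 for superficial minus middle (5 higher), 2.30 for superficial minus fetal (34 higher, 2 lower) and 2.06 for adult minus fetal (7 higher, 0 lower). Under it EIF2A, EIF3D, EEF1A1 and TARS1 turned to -0.10, -0.10, -0.74 and -0.30 for superficial minus deep, and EIF1, EEF1A1, QARS1 and TARS1 to -0.0039, -0.61, -0.017 and -0.54 for superficial minus middle. For adult minus fetal, EIF3H, EIF3E, QARS1, EEF2 and EEF1A1 turned to 0.54, 0.66, 1.34, 1.87 and 2.06. With the 50th percentile of all probes and no centring, intermediate interzone minus cartilage had 8 lower and a median of 0.23, outer interzone minus cartilage 18 higher, 9 lower and 0.49, superficial minus fetal 9 lower and 0.44, and superficial minus middle a median of 1.62. The authors' deposited ratio gave the same 4 counts and medians of 0.22, 0.49, 0.44 and 1.62.

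Quantile normalization gave medians of 2.52 for superficial minus deep, 2.82 for superficial minus middle (2 lower), -0.54 for superficial minus fetal and -2.38 for adult minus fetal (8 lower), and 1 higher for middle minus deep. Normexp correction gave 4 higher and a median of -0.56 for intermediate interzone minus cartilage, 4 higher and 9 lower for outer interzone minus cartilage, 5 higher and -0.33 between interzone layers, and medians of 1.27 and 1.55 for superficial minus deep and minus middle. Averaging probes gave medians of 1.5 for superficial minus deep (2 lower), 1.84 for superficial minus middle and -2.16 for middle minus deep. It turned EIF5B and EEF1G to 2.37 and 3.12 for superficial minus deep, EEF2 to 1.16 for superficial minus middle and EIF4G1 to 0.97 for superficial minus fetal.

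Taking genes above background on at least 1 array added dim genes. It gave a median of -0.0085 for intermediate interzone minus cartilage, 15 higher and 17 lower between interzone layers, 26 and 17 for superficial minus deep, 31 and 18 for superficial minus middle, 13 and 13 for middle minus deep (median 0.42), 29 and 23 for superficial minus fetal, and 10 and 43 for adult minus fetal. Under it EIF3H, EIF2A, EIF3D, EEF1A1 and TARS1 turned to -0.60, -1.24, -1.24, -1.87 and -1.43 for superficial minus deep, EIF1, EEF1A1, QARS1 and TARS1 to -1.83, -2.43, -1.84 and -2.36 for superficial minus middle, and EEF1A1 to 0.12 for adult minus fetal. Requiring a signal at least 2 times the lowest above background gave a median of -0.91 for adult minus fetal.

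With a 4-fold threshold, 2 genes were higher and 5 lower for intermediate interzone minus cartilage, 3 and 5 for outer interzone minus cartilage, 5 and 4 between interzone layers, 5 and 1 for superficial minus middle and 5 and 7 for superficial minus fetal, with 4 higher for superficial minus deep, 0 higher for middle minus deep and 2 lower for adult minus fetal. Leaving out each array in turn, adult minus fetal had 1 to 5 higher, 4 to 8 lower and a median of -1.35 to -0.77, with 5 higher and 7 lower without the middle layer and 2 higher and 8 lower without the deep layer.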

Other observations

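Signalling genes upstream of translation differed between the interzone layers. RPS6KB2, a ribosomal protein S6 kinase, had levels of -2.42, -4.85 and -5.64 in the intermediate interzone, outer interzone and cartilage, and was 7.32-fold higher in the intermediate interzone than in cartilage. DDIT4, an inhibitor of TOR signalling, was 3.04-fold higher there. RHEB, which activates TOR, and MTOR itself were 3.20-fold and 3.00-fold lower. In the outer interzone these 4 genes lay within 2-fold of cartilage. TSC2 and RPS6KB1, of the same list, were above background in the outer interzone alone of the fetal arrays, at levels of -3.60 and -7.95. Of 8 such genes on the array, 4 were measured in each comparison.

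ATF4, the transcription factor of the integrated stress response, had fetal levels of -2.18, -3.43 and -2.61 and a superficial level of -7.84. It was 33.0-fold lower in the superficial layer than in the fetal mean. Its superficial level lay near the lowest above background on that array (-8.28). The other 2 genes of that response measured there, DDIT3 and ASNS, were 2.47-fold and 3.15-fold higher. Among 6 measured mitochondrial translation factors, the intermediate interzone exceeded cartilage 5.14-fold in MTRF1L and 2.85-fold in MTIF2, while TUFM was 2.25-fold lower and the other 3 lay within 2-fold. GFM1, a mitochondrial elongation factor, was 7.48-fold higher in the superficial layer than in the fetal mean.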
